A study of Mus musculus with 24 samples.

Results

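A group of 9 genes with known roles in neurons or neural progenitors was followed through cells that divide fast or slowly, with and without the reprogramming factors. They were 3 stathmins (Stmn1, Stmn2, Stmn3), the tubulin Tubb3, the intermediate filament Nes, the splicing factor Nova2 and the transcription factors Pou4f2, Olig2 and Tlx2. These 9 genes of the 23283 in the deposited count table were picked by name after their levels in fast MEF and iPS libraries had been seen. Every level of these genes in those groups, and each of their fold changes with fast MEF or iPS on top, is therefore a description with no test. All 9 genes had counts in at least 1 library.

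The 24 mouse libraries were made from wells of 1000 sorted cells, from cytosolic RNA primed with oligo-dT and amplified. The iPS group (4 libraries) held factor-independent induced pluripotent cells, sorted as Oct4:GFP+ and grown in embryonic stem cell medium without doxycycline. Mouse embryonic fibroblasts (MEF) had the Yamanaka factors induced for 6 days with 2 µg/ml doxycycline in the same medium with LIF, and were split by how far they had diluted the division dye CFSE over 48 hours into fast MEF (4 libraries) and slow MEF (4 libraries). Bulk MEF (4 libraries) were uninduced and unsorted by dye, grown in 10% serum medium. Granulocyte monocyte progenitors (GMP), blood cells without the factors, were grown with cytokines that included SCF, IL3 and Flt3L and split by CFSE over 24 hours into fast GMP (5 libraries) and slow GMP (3 libraries). The labels name no strain, age, sex, transgene line, animal or culture, so p-values measure only library-to-library spread, and that spread may be technical. By the labels, fast and slow MEF differ in the dye gate, but slow MEF and bulk MEF differ in factors, medium and sort together, and iPS and bulk MEF, neither with the factors induced at collection, differ in medium, sort and cell type together, so those causes cannot be told apart. Levels are CPM, counts scaled to library size with TMM factors over all 24 libraries; library totals ran from 2098846 to 18648132 counts. They compare one gene between libraries, not one gene with another, since no gene length was used. In such bulk wells, fewer cells with a transcript and less transcript per cell cannot be told apart.

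The cell type labels were set against marker genes. Summed pluripotency markers reached 1772 to 2529 CPM in iPS libraries, against 4.36 to 13.5 CPM in fast MEF. GMP libraries held 5021 to 24810 CPM of granulocyte markers. Summed fibroblast markers were 1792 to 4645 CPM in fast MEF, 38490 to 73960 CPM in slow MEF and 21420 to 38210 CPM in bulk MEF, so the fast MEF libraries, though labelled as fibroblasts, held less of these markers than every other MEF library. Fast MEF carried 6726 to 11840 CPM of keratinocyte markers, nearly all of it Krt14 (mean 9834 CPM, a keratin whose close copies can share reads), while Krt5, its usual partner in basal keratinocytes, stayed between 0.16 and 1.04 CPM. The markers Perp and Dsg3 had 147.4 to 228.4 and 20.26 to 29.76 CPM in fast MEF, above every slow and bulk MEF library. Krt5, Krt15, Trp63, Krt1 and Krt10 did not have every fast MEF library above those. Fast GMP replicate 1 stood apart from the other GMP libraries, with 18402 genes detected against 9380 to 14168.

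Neurons are told from their progenitors by the genes they switch on. Stathmins bind tubulin dimers and destabilise microtubules. Stmn1 is made in most dividing cells, whereas Stmn2 and Stmn3 belong to growing neurites. Tubb3 is the neuronal class III beta-tubulin, Nes the intermediate filament of neural stem cells and of several other dividing cell types, and Nova2 a neuronal regulator of alternative splicing. Pou4f2 is a POU homeodomain factor of retinal ganglion cells, Tlx2 a homeodomain factor of enteric neurons and other neural crest derivatives, and Olig2 a bHLH factor of oligodendrocytes and motor neuron progenitors. In non-neural cells many such genes are held off by the repressor REST, which binds the RE1 element with its cofactors, while Ptbp1 represses neuronal exons.

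The sequences upstream of the start sites are shown for the genes that were high together: Tubb3, Nova2 and Pou4f2 in fast MEF, and Olig2 and Stmn3 in iPS. Each is the 250 bases before the RefSeq start on GRCm38.p6, 5′ to 3′ on the strand of the gene. The count table was made on another build, mm9. Capitals mark matches, on either strand, to the SOX core CATTGT, the KLF box CCNCACCC, or the left part of RE1, CAGCACC.
Tubb3: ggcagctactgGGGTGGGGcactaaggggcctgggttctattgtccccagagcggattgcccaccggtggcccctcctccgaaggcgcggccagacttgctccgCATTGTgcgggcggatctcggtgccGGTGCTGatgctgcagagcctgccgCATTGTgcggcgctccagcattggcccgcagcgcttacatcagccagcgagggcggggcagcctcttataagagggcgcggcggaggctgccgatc
Nova2: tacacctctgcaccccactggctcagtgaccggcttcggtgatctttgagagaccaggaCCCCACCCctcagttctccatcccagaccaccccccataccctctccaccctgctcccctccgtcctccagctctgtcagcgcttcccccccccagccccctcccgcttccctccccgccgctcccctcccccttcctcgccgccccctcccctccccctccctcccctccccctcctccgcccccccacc
Pou4f2: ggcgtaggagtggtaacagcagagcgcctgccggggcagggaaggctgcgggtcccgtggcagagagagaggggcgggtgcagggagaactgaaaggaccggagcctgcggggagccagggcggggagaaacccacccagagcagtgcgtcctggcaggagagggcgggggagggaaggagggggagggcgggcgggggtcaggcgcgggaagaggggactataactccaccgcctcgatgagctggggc
Olig2: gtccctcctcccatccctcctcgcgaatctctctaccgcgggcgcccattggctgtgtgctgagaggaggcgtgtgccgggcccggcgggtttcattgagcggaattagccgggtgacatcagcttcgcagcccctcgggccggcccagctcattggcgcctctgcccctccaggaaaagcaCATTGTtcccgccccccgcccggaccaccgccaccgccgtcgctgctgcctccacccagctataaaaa
Stmn3: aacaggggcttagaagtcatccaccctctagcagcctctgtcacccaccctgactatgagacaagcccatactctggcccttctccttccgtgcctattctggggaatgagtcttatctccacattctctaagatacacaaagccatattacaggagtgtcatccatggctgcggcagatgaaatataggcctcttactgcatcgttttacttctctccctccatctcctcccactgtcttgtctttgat
The Tubb3 window, chr8:123411303-123411552 on the plus strand, held the SOX core at positions -146 and -96 from the start, a KLF box at -239 and a left RE1 part at -121. The Nova2 window, chr7:18925638-18925887 on the plus strand, held 1 KLF box at -191. The Olig2 window, chr16:91225300-91225549 on the plus strand, held 1 SOX core at -68. The Pou4f2 window, chr8:78436648-78436897 on the minus strand, and the Stmn3 window, chr2:181314501-181314750 on the minus strand, held none of these letters. Of 32851 mouse windows of the same length, 10.7% held the SOX core, 14.9% the KLF box and 5.73% the left RE1 part, and no match was common to the 3 genes high in fast MEF. The octamer ATGCAAAT (1.6% of windows), the MYC E-box CACGTG (6.02%) and the right RE1 part GGACAGC (5.28%) were in none of the 6 windows matched, which include that of Nes. Any E-box, CANNTG, which contains CACGTG, is in 66.2% of windows and was not marked. The windows of Tubb3, Nova2, Pou4f2 and Olig2 were rich in G and C, at 68.0%, 71.2%, 70.8% and 66.8%, against a median of 52.4%. That of Stmn3 was at 48.8% with 3 CpG, where the median window has 6. Stmn1, Stmn2 and Tlx2 had no entry in the table of promoters.

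Of the 9 genes, 5, Stmn2, Tubb3, Nova2, Pou4f2 and Tlx2, were higher in each of the 4 fast MEF libraries than in any of the other 20. Among all 21575 genes with a count, 1.4% had that pattern. Since this pattern led to the choice of the genes, nothing is read from the difference in shares. Olig2 alone was higher in every iPS library than in all others, a pattern held by 2.37% of genes. Stmn2 alone had every fast MEF and every iPS library above all 16 others, as did 0.487% of genes. Stmn3 joined the iPS pattern when iPS replicate 3 or fast GMP replicate 1 was left out, and Tubb3 joined the joint pattern without bulk MEF replicate 4 or iPS replicate 2.

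**Figure D1:**
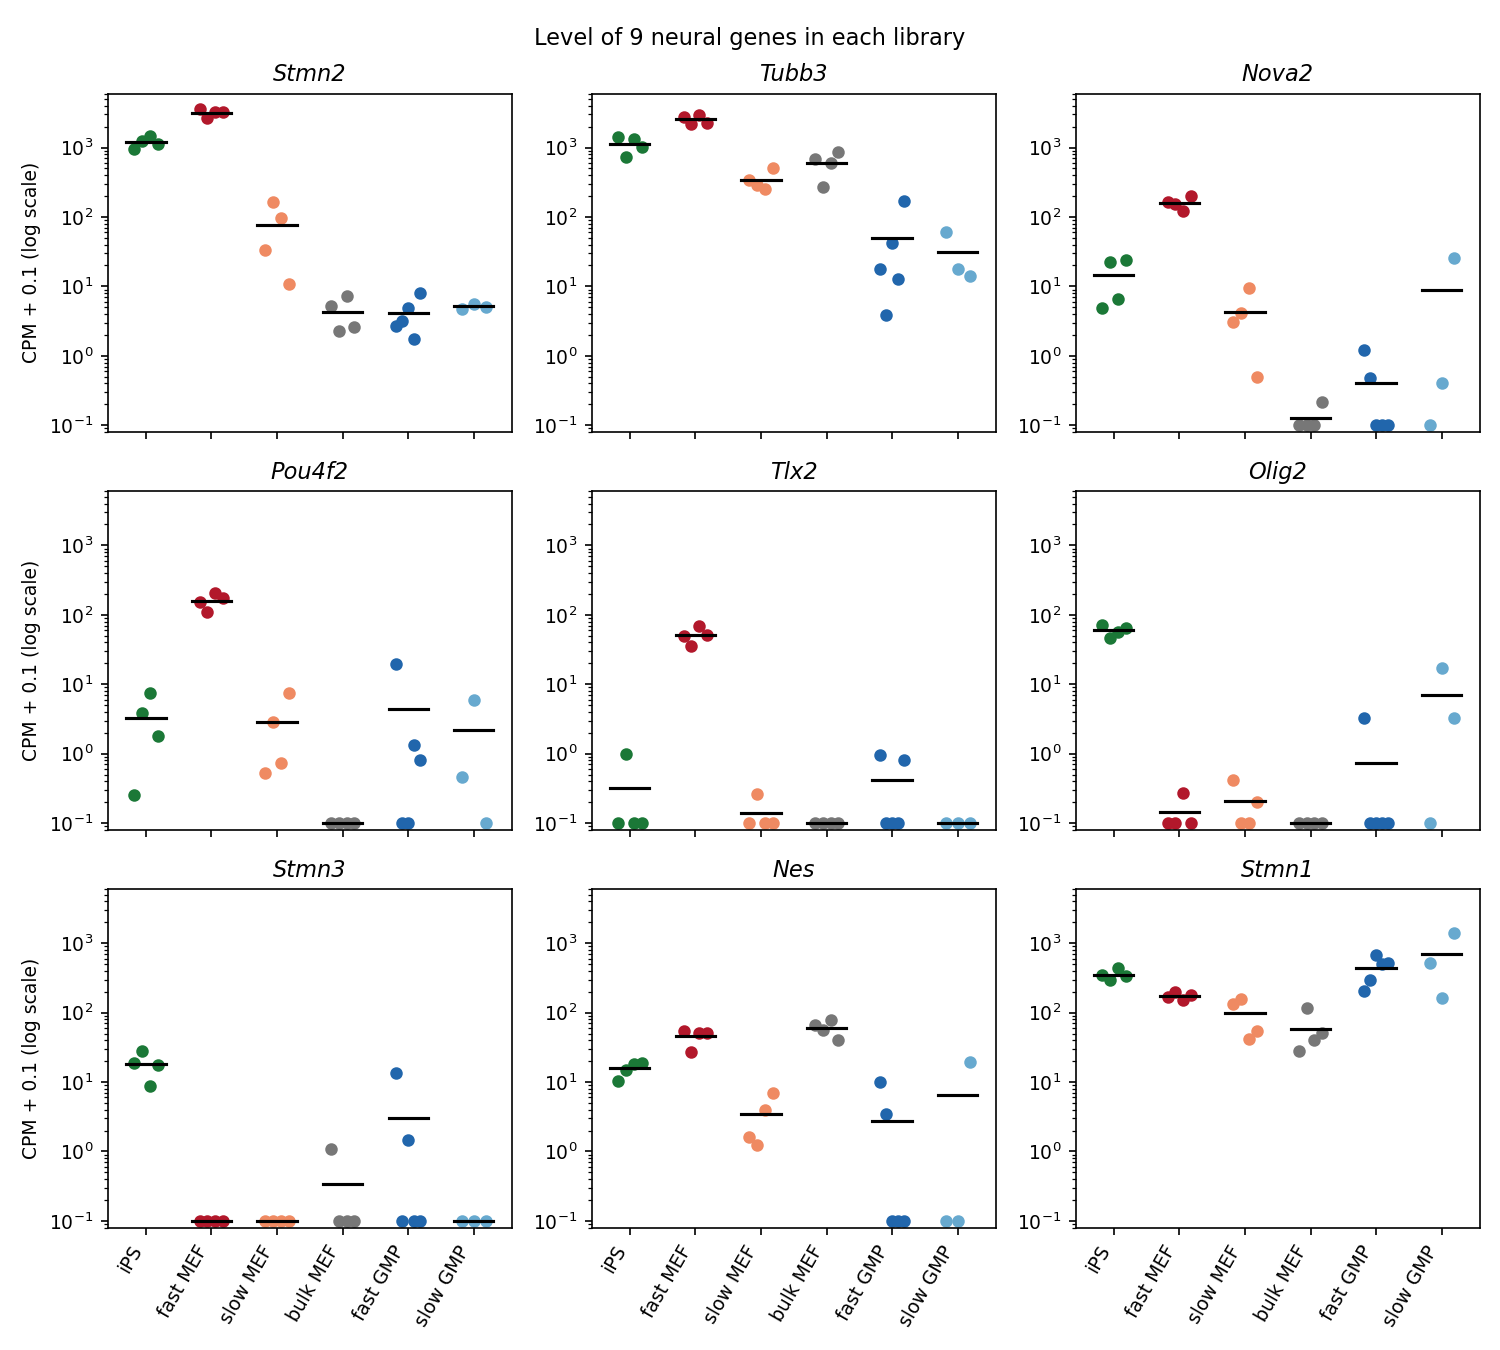
CPM plus 0.1 on a log axis in each library for the 9 genes, with groups as columns of points and the group mean as a bar. Stmn2, Tubb3, Nova2, Pou4f2 and Tlx2 peak in fast MEF, Olig2 and Stmn3 in iPS, while Nes has a mean of 45.9 CPM in fast MEF and 60.3 CPM in bulk MEF, and Stmn1 is present in all 6 groups.

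Stmn2, the stathmin of growth cones, stood at 949, 1234, 1447 and 1135 CPM in iPS libraries. It stood at 3538, 2692, 3231 and 3257 CPM in fast MEF, at 33.6, 162, 94.9 and 10.8 CPM in slow MEF, and at 5.09, 2.15, 7.09 and 2.50 CPM in bulk MEF. The 4 groups did not overlap one another, in the order fast MEF, iPS, slow MEF and bulk MEF. Between its highest and lowest library, slow MEF had the widest ratio of the 4 groups. The edgeR log2 fold change was 5.27 ± 0.73 (SE, n = 4 each) for fast over slow MEF, and 5.97 without slow MEF replicate 2, the highest slow library. It was 8.13 ± 0.49 for iPS over bulk MEF and -1.43 ± 0.17 for iPS over fast MEF.

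Tubb3 had 1434, 720, 1334 and 1007 CPM in iPS, 2741, 2189, 2942 and 2268 CPM in fast MEF, and 337, 288, 253 and 503 CPM in slow MEF. Bulk MEF held 694, 274, 595 and 861 CPM of it. Unlike Stmn2, this tubulin was already present in uninduced fibroblasts: iPS and bulk MEF overlapped, because iPS replicate 2 lay below bulk MEF replicate 4, and so did slow and bulk MEF. The log2 fold change of fast over slow MEF was 2.77 ± 0.25, and that of iPS over bulk MEF 0.90 ± 0.34. Mc1r, the neighbouring gene, had at most 2.60 CPM in iPS and MEF libraries. In GMP Tubb3 averaged 49.7 ± 69.8 CPM in fast GMP and 30.8 ± 25.7 CPM in slow GMP (SD, n = 5 and 3).

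Nova2, the splicing factor, had 4.72, 22.1, 6.44 and 24.1 CPM in iPS and reached 162, 154, 123 and 200 CPM in fast MEF. It had 2.99, 4.00, 9.47 and 0.39 CPM in slow MEF, and in bulk MEF 1 count in replicate 4 and none elsewhere. All fast MEF libraries lay above all others, and the iPS libraries overlapped those of slow MEF. The ratio of fast to slow MEF was 42.3 (95% counting interval 36.1 to 49.9), and against the single count in bulk MEF it was 6570 (1179 to 259500). Its log2 fold change of fast over slow MEF, 5.12 ± 0.74, was 5.87 without slow MEF replicate 3. These intervals cover counting error only, since amplified reads are not independent molecules.

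Pou4f2 had 0.15, 3.75, 7.27 and 1.68 CPM in iPS. It stood at 150, 111, 206 and 175 CPM in fast MEF, against 0.43, 2.77, 0.63 and 7.34 CPM in slow MEF and 0 in all 4 bulk MEF libraries. Fast MEF lay above all other groups, and the iPS libraries overlapped those of slow MEF. Against the floor of 3 counts over the bulk MEF group, fast MEF was at least 2043-fold higher and iPS at least 55.4-fold higher. The log2 fold change of fast over slow MEF was 5.73 ± 0.82, and 6.78 without slow MEF replicate 4. That of iPS over fast MEF was -5.60 ± 0.79, and -6.38 without iPS replicate 3.

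Tlx2 was all but absent outside fast MEF. It had 10 counts in iPS, all in replicate 2 (0.87 CPM), and 48.6, 35.6, 68.9 and 51.2 CPM in fast MEF, against 2 counts over slow MEF and none in bulk MEF. GMP held 4 counts of it, all in the fast gate. Fast MEF was at least 642-fold higher than bulk MEF, and its ratio to slow MEF was 967 (counting interval 267 to 7993). In iPS against fast MEF the ratio was 0.00403 (0.00193 to 0.00742).

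Olig2 showed the reverse. It had 71.9, 45.5, 56.8 and 63.4 CPM in iPS, 1 count over the 4 fast MEF libraries, 4 over slow MEF and none in bulk MEF. The iPS group was at least 763-fold higher than bulk MEF, and its ratio to fast MEF was 2351 (421.5 to 92870). Stmn3, the other stathmin of neurites, had 18.4, 28.1, 8.58 and 17.6 CPM in iPS and no count in any fast or slow MEF library, which puts iPS at least 223-fold above fast MEF and at least 218-fold above slow MEF. Bulk MEF had 10 counts of Stmn3, all in replicate 1, so that the ratio of iPS to bulk MEF, 65.1 (35.2 to 136.3), rests on that library.

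Nes did not follow the others. It had 10.4, 14.9, 18.3 and 19.0 CPM in iPS and 54.5, 27.4, 50.1 and 51.5 CPM in fast MEF, against 1.50, 1.14, 3.91 and 6.95 CPM in slow MEF. Bulk MEF held 65.5, 56.6, 79.0 and 40.03 CPM, overlapping fast MEF, and had the highest mean of the 6 groups, 60.3 ± 16.3 CPM (SD, n = 4). The log2 fold change was 3.66 ± 0.62 for fast over slow MEF, 4.28 without slow MEF replicate 4, and -1.95 ± 0.37 for iPS over bulk MEF.

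Stmn1, the stathmin of dividing cells, was measured in every library. Its mean was 353.5 ± 60.5 CPM in iPS, 174.9 ± 18.62 in fast MEF, 97.2 ± 57.6 in slow MEF, 58.9 ± 39.1 in bulk MEF, 438.6 ± 189.5 in fast GMP and 699.3 ± 645.8 in slow GMP (SD, n = 4, 4, 4, 4, 5 and 3). The iPS libraries lay above all fast MEF libraries, whereas fast MEF, with 153 to 198 CPM, overlapped slow MEF, with 42.2 to 159.5 CPM. The cell cycle gene Mki67 had 126 to 221 CPM in fast MEF, against 12.6 to 34.1 CPM in slow MEF, without overlap.

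The low level in slow MEF was not the same fraction of the fast MEF level for every gene. Slow MEF replicate 2 was the highest for Stmn2, at 5.1% of the fast MEF mean, and replicate 4 the lowest, at 0.339%. For Pou4f2 replicate 4 was the highest, at 4.57%, and for Nova2 it was replicate 3, at 5.93%, with replicate 4 at 0.245%. Krt14 had its highest slow MEF share in replicate 4, at 5.68%, and Sox2, one of the induced factors, in replicate 3, at 5.53%. Pou5f1 also had its highest share in replicate 3, at 7.47%. Some of these shares rest on few counts, such as 4 for Nova2 in replicate 4, and their cause was not tested. Tubb3 stood apart at 9.96% to 19.8%.

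**Figure D2:**
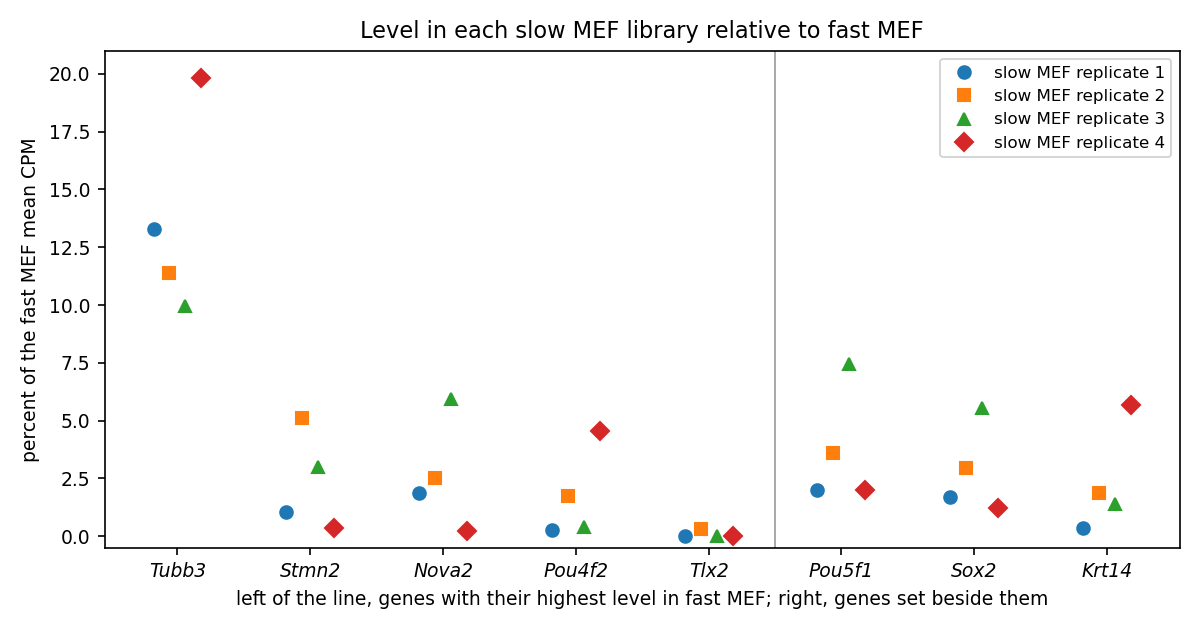
Level of each gene in each slow MEF library as a percent of its mean CPM in the 4 fast MEF libraries, with 1 symbol per library. The library with the highest share changes from gene to gene, being replicate 2 for Stmn2 (5.1%), replicate 3 for Nova2 (5.93%) and replicate 4 for Pou4f2 (4.57%).

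Of the relatives of the 9 genes given here, Olig1 was high in iPS. Over the fast MEF group, Tlx1 had 157 counts, at 4.45, 0.62, 0 and 8.07 CPM. Olig3 had 56 counts there and Pou4f1 54, and the others had at most 8. Tlx3, a homeodomain factor of sensory and hindbrain neurons, had 0.46, 0.35, 4.78 and 43.8 CPM in iPS libraries and 1 count over the fast MEF group, whereas Tlx2 was in fast MEF. Pou4f3, the Pou4f2 relative of hair cells, had 7.01, 0.52, 1.07 and 8.73 CPM in iPS and no count in any MEF library. Olig1, the partner of Olig2 in the oligodendrocyte lineage, had 33.2, 84.9, 69.4 and 60.5 CPM in iPS and 3 counts over fast MEF, high in the same group as Olig2. Nova1 had 8 counts over fast MEF against 103 over slow MEF, and Stmn4 had no count in fast MEF. In MEF and iPS libraries these are genes of small counts, except Olig1 in iPS and Tlx3 in iPS replicate 4. No test was made of the family as such.

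In 7 lists of other neural genes, 126 genes beside the 9, the picture between fast and slow MEF was mixed. Of 55 that passed the count filter, 20 rose and 16 fell in fast MEF by edgeR's quasi-likelihood test with Benjamini-Hochberg adjustment over 11742 genes, which is 36.4% and 29.1% against 14.4% and 17.3% of all genes tested. Their median log2 fold change was 0.35, against -0.11 for all genes. The lists were chosen with earlier results of these data known, so their calls and adjusted p are not independent of that choice. Nothing is therefore read from the difference in shares. The genes that passed the filter include those that are high in 1 group only, so these shares describe the 55 and not the 126.

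Among cytoskeletal genes of neurons, 4 of 13 tested rose and 3 fell. The neurofilament Nefl averaged 742.4 ± 115.0 CPM in the fast gate, against 10.2 ± 16.5 CPM in slow MEF (SD over 4 libraries), a log2 fold change of 6.05 ± 1.22 (adjusted p = 0.00413). Dpysl5, a collapsin response mediator of growing axons, stood at 313.6 ± 40.9 CPM in fast MEF, with 7.42 ± 8.39 CPM in slow MEF (5.27 ± 1.04, adjusted p = 0.00369), and the dendritic protein Mtap2 had a log2 fold change of 4.03 ± 0.52 (adjusted p = 0.000365). The growth cone protein Gap43 (-3.87 ± 1.11, adjusted p = 0.0225), the microtubule kinase Dclk1 (-1.40 ± 0.35) and the alpha-tubulin Tuba1a (-0.80 ± 0.21) fell. For Dclk1, slow MEF had the highest mean, 68.3 CPM, against 28.5 CPM in fast MEF and 10.8 CPM in bulk MEF. Without slow MEF replicate 2, the value of Nefl was 8.43 and that of Dpysl5 6.17. The call of Gap43 was lost without fast MEF replicate 1 (adjusted p = 0.0523), and without fast MEF replicate 2 its value was -6.78.

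Of RNA-binding proteins 3 of 7 tested rose and 2 fell. Elavl2, a neuronal stabiliser of AU-rich mRNAs, had 28.3 ± 12.5 CPM in fast MEF and 1.44 ± 2.17 CPM in slow MEF (4.11 ± 1.06, adjusted p = 0.0139; 6.05 without slow MEF replicate 2), and the splicing factor Celf5 rose by 3.08 ± 0.44. Of progenitor genes 1 of 4 rose and 3 fell, among them the adhesion molecule Ncam1 (226.4 ± 37.2 CPM in fast MEF and 1000.0 ± 279.0 CPM in slow MEF) and the hedgehog effector Gli3 (-3.47 ± 0.36). Of neural crest and glial genes 5 of 11 rose and 3 fell. Ngfr, the low-affinity neurotrophin receptor of neural crest, rose to 121.9 ± 63.5 CPM in fast MEF, against 3.29 ± 2.095 CPM in slow MEF, while the endothelin receptor Ednrb, also of neural crest, fell to 1.83 ± 1.01 CPM, against 43.9 ± 10.9 CPM. Of synaptic and vesicle genes 3 of 13 rose, with the neuronal ubiquitin hydrolase Uchl1 at 389.5 ± 58.4 CPM in fast MEF, against 14.5 ± 16.8 CPM in slow MEF (5.83 in place of 4.61 without slow MEF replicate 2), and 5 fell, among them the postsynaptic scaffold Dlg4 (-3.82 ± 0.40) and the vesicle protein Vamp2 (-2.06 ± 0.51). Mbp (2.22 ± 0.73) lost its call without 6 of the 8 libraries, and the myelin enzyme Cnp (-2.97 ± 0.77) without slow MEF replicate 3 (adjusted p = 0.0554). The complexin Cplx2 fell (-2.83 ± 0.69; -2.25 without slow MEF replicate 4).

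Most transcription factors of neurons stayed under the count filter in this comparison. Of 18 proneural bHLH factors and their partners 3 were tested and 2 rose, and of 15 neuronal homeodomain factors 4 were tested and 2 rose. Among them were Neurog3, a bHLH factor of neurogenesis and of endocrine pancreas, Insm1, a zinc finger of neuroendocrine progenitors, and Phox2a, a homeodomain factor of autonomic neurons. These 3 are named after their values were seen. Neurog3 had 22.5, 10.7, 1.56 and 2.16 CPM in fast MEF and no count in slow or bulk MEF. Phox2a had 17.3, 9.95, 1.56 and 18.2 CPM in fast MEF and no count in slow MEF, while bulk MEF had 4.70 and 3.97 CPM in replicates 1 and 4 and no count in the other two, so fast MEF replicate 3 lay below those bulk libraries. Insm1 had 5.72, 7.40, 3.64 and 2.32 CPM in fast MEF, against 5 counts over slow MEF and none in bulk MEF.

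**Figure D3:**
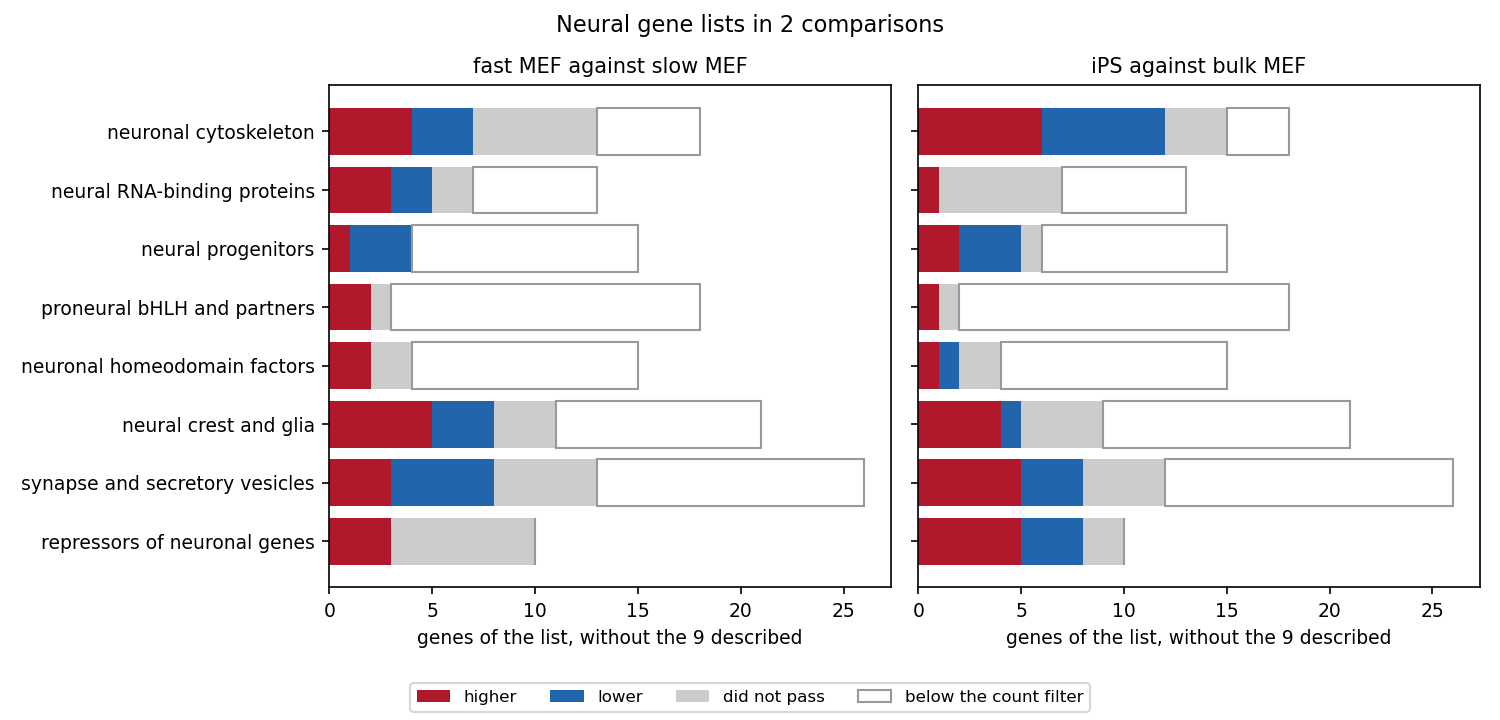
Number of genes in each of 7 neural lists, and in a list of repressors of neuronal genes, that rose, fell, did not pass or were below the count filter in fast against slow MEF (left) and in iPS against bulk MEF (right). In fast against slow MEF the synaptic list has 3 genes higher and 5 lower, and the crest and glia list 5 higher and 3 lower; most bHLH and homeodomain factors were below the filter.

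Of 10 repressors of neuronal genes tested, 3 rose in fast against slow MEF and none passed as lower. Ctdspl, a small phosphatase of the REST pathway, averaged 5.12 ± 4.54 CPM in fast MEF, against 15.8 ± 3.49 CPM in slow MEF, without overlap but short of the threshold (edgeR log2 fold change -1.73 ± 0.86, adjusted p = 0.155). Rest had 47.7, 85.2, 80.2 and 122 CPM in fast MEF and 35.2, 37.8, 39.4 and 30.2 CPM in slow MEF (1.12 ± 0.33, adjusted p = 0.0253). That call was lost without slow MEF replicate 2 or 4 or fast MEF replicate 2 or 4, with adjusted p between 0.05 and 0.0875. Rcor2, a cofactor related to CoREST, rose by 3.46 ± 0.89. Ptbp1 averaged 408.4 ± 55.8 CPM in fast MEF, against 135.0 ± 23.8 CPM in slow MEF (1.49 ± 0.23, adjusted p = 0.000964), while bulk MEF held 401.2 ± 59.3 CPM, so that slow MEF were the low group.

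The neuron markers in fast MEF came down to few genes. Their summed level was 36.1 to 79.6 CPM in iPS, 620.7 to 870.8 CPM in fast MEF, 3.52 to 42.1 CPM in slow MEF and 0.47 to 8.71 CPM in bulk MEF, with 5 of 8 markers detected in each fast MEF library. Nefl made up most of it. Elavl3, an early pan-neuronal RNA-binding protein, had at most 1.21 CPM in fast MEF, and Snap25, a synaptic fusion protein, at most 3.29 CPM. Rbfox3, the gene of the NeuN antigen, had 1.54, 2.64, 46.4 and 3.20 CPM, and the vesicle calcium sensor Syt1 had 1.36, 1.76, 2.08 and 22.8 CPM in the 4 fast MEF libraries, each high in 1 library. Summed crest glia markers reached at least 96.4 CPM in iPS and 78.1 to 207.9 CPM in fast MEF, where Ngfr was the largest and Foxd3 was at 0. The part of neuronal or glial cells in the levels of the 9 genes was not tested.

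In iPS against bulk MEF, 20 of 55 other neural genes tested rose and 14 fell, 36.4% and 25.5%, against 24.1% and 23.3% of 11736 genes. Their median log2 fold change was 0.42, against 0.10 for all genes. Here too the lists were chosen with earlier results known, and the filter admits genes that are high in 1 group only. The shares thus describe the 55 and not the 126, and nothing is read from their difference. Cytoskeletal genes split evenly, with 6 of 15 higher and 6 lower. Nefl averaged 39.9 ± 20.0 CPM in iPS and 0.30 ± 0.12 CPM in bulk MEF (7.01 ± 0.59, adjusted p = 1.74e-05), the tau gene Mapt 26.0 ± 13.1 CPM and 0.25 ± 0.21 CPM (6.64 ± 0.84; 7.23 without bulk MEF replicate 3), and the neuronal intermediate filament Ina 27.5 ± 5.83 CPM and 0.45 ± 0.55 CPM (5.95 ± 0.87; 7.07 without bulk MEF replicate 4). Dpysl3 (-3.31 ± 0.32), Tuba1a (-1.77 ± 0.28) and Mtap1b (-1.72 ± 0.35) fell. Of 7 RNA-binding genes 1 rose and none fell. Of 6 progenitor genes 2 rose, with the forebrain and epiblast factor Otx2 at 27.4 ± 9.56 CPM in iPS and 0.10 ± 0.08 CPM in bulk MEF, and 3 fell, with Ncam1 at -4.60 ± 0.31. Gli3 fell by 1.57 ± 0.51, a call lost without bulk MEF replicate 3 or 4 or iPS replicate 1 or 4.

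The other transcription factors high in iPS include genes that early embryonic cells also use. Olig1 rose by 8.57 ± 0.85 (9.65 without bulk MEF replicate 3), the only bHLH gene of 2 tested to do so, and the POU factor Pou3f1 by 8.50 ± 1.01 (11.9 without bulk MEF replicate 3), 1 of 4 homeodomain genes, where another fell. Foxd3, a factor of neural crest that embryonic stem cells also need, had 29.2 ± 8.35 CPM in iPS and 2 counts over bulk MEF, a ratio of 616 (170 to 5093). It was among 4 of 9 crest and glial genes that rose, with Erbb3 (8.10 ± 0.97; 8.85 without bulk MEF replicate 2 and 7.38 without iPS replicate 4) and the myelin gene Mobp, whose ratio to 2 counts in bulk MEF was 397 (109.6 to 3283). Another fell. Of 12 synaptic and vesicle genes 5 rose and 3 fell. The granule protein Chga had 133.8 ± 102.3 CPM in iPS and 0.28 ± 0.27 CPM in bulk MEF (8.85 ± 0.90; 9.52 without bulk MEF replicate 1 and 8.13 without iPS replicate 1). Bex1 rose by 8.02 ± 0.83 (8.65 without bulk MEF replicate 3), Pcsk1n by 4.23 ± 1.02 (5.32 without bulk MEF replicate 2), and Vamp2 had a log2 fold change of -3.80 ± 0.92 (-2.16 without bulk MEF replicate 2). Cpe had a log2 fold change of -4.22 ± 1.50, which was -8.84 without iPS replicate 1 and lost its call without any of 6 other libraries. Of 10 repressors 5 rose and 3 fell: Rest by 2.99 ± 0.44, Rcor2 by 6.64 ± 0.50 and Hdac1 by 1.85 ± 0.22 rose, and Rcor1 (-2.09 ± 0.41), Hes1 (-2.04 ± 0.40) and the phosphatase Ctdspl (-3.09 ± 0.71) fell.

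Fast against slow MEF and iPS against bulk MEF share no libraries, and 41 other neural genes were tested in both. Of these, 8 rose in both (Bex1, Dpysl5, Erbb3, Mapt, Mobp, Nefl, Ngfr and Pcsk1n) and 7 fell in both (Cpe, Dclk1, Ednrb, Gli3, Ncam1, Tuba1a and Vamp2). Of all 10771 genes tested in both, 787 (7.31%) rose in both and 1204 (11.2%) fell in both. A pair went opposite ways: Mtap2 rose in fast MEF and fell in iPS, and the synaptic vesicle gene Syn1 fell in fast MEF and rose in iPS. Of all genes tested in both, 1.11% rose in fast MEF and fell in iPS, and 0.752% did the reverse. Another 5 of the 41 neural genes rose in fast MEF and did not pass in iPS (Celf5, Elavl2, Mbp, Phox2a and Uchl1). Of all 10771 genes, 587 (5.45%) did so. A further 7 of the 41 fell in fast MEF and did not pass in iPS (Cnp, Cplx2, Dlg4, Gap43, Msi1, Ptbp2 and Slc1a3). Of all 10771 genes, 613 (5.69%) did so. The lists were chosen with earlier results known, so nothing is read from the difference in shares.

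**Figure D4:**
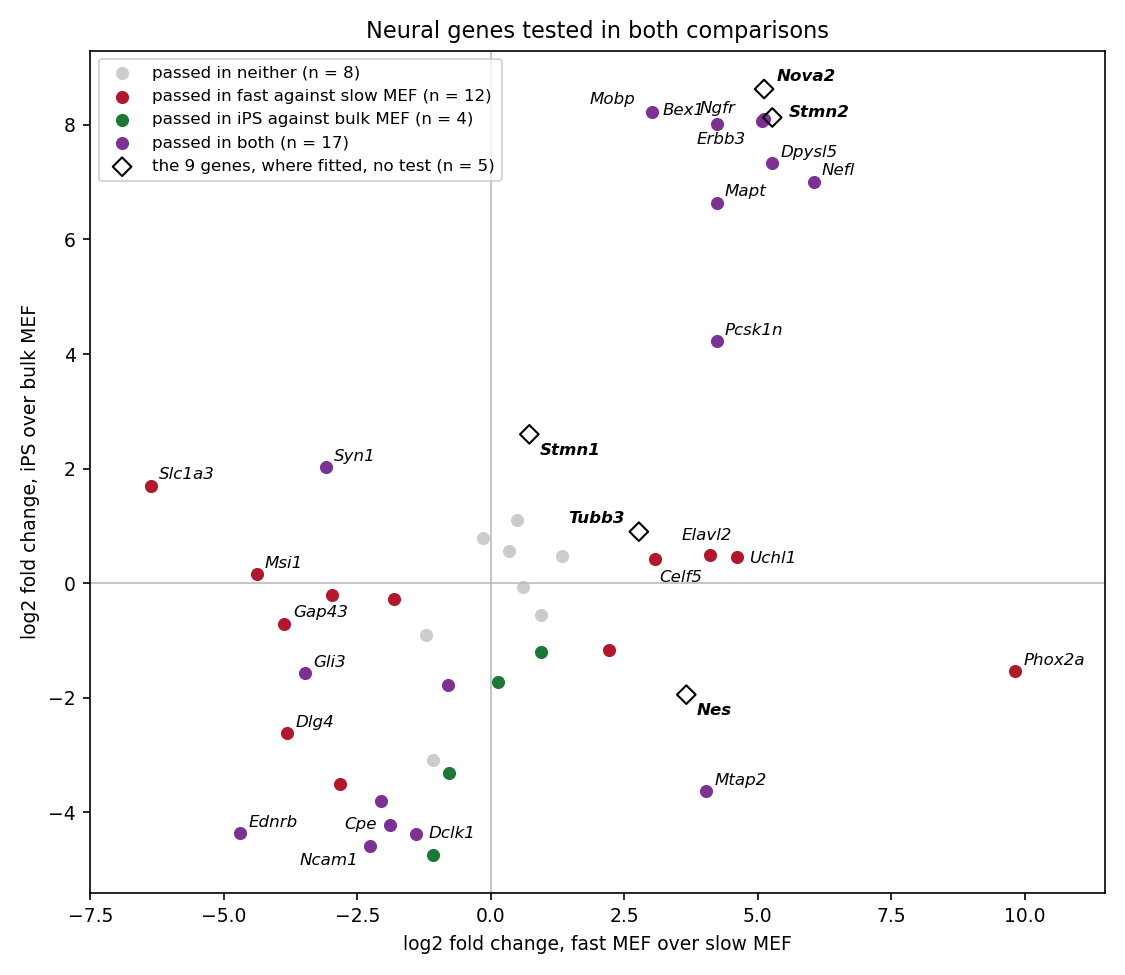
Log2 fold change of fast over slow MEF (x) against that of iPS over bulk MEF (y) for the 41 other neural genes tested in both, coloured by which edgeR test they passed, with those of the 9 genes fitted in both as open diamonds. Nefl, Dpysl5, Mapt and Bex1 lie with Stmn2 and Nova2 at the upper right, Elavl2 and Uchl1 to the right of Tubb3, and Mtap2 below Nes; positions of genes with 3 or fewer counts in a group, such as Nova2, Mobp and Phox2a, depend on the prior count.

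Set against each other, iPS and fast MEF differed in some of the listed neural genes. Of 62 other neural genes tested, 16 were higher and 16 lower in iPS, 25.8% each, against 18.8% and 19.7% of 11882 genes, with a median of -0.49 against 0.00. The same limits of list choice and count filter hold, so these shares describe the 62 and not the 126. Nothing is read from their difference. By list, 3 of 16 cytoskeletal genes were higher and 6 lower, 2 and 2 of 8 RNA-binding genes, 2 and 2 of 5 progenitor genes, 1 and 1 of 5 bHLH genes, 1 and 2 of 5 homeodomain genes, 2 and 1 of 9 crest and glial genes, 5 and 2 of 14 synaptic genes, and 5 and 3 of 10 repressors. Ina had 1474 counts over iPS and none in fast MEF, at least 392-fold higher, and Foxd3 was at least 422-fold higher. The ratio of iPS to fast MEF was 4389 (787.5 to 173400) for Chga, 1015 (181.8 to 40110) for Otx2 and 895 (306 to 4343) for Olig1, each against 1 to 3 counts. Syn1 had 25.6 ± 15.8 CPM in iPS and 0.62 ± 0.53 CPM in fast MEF (5.42 ± 0.80; 6.10 without fast MEF replicate 3), and Pou3f1 rose by 7.84 ± 0.91 (9.26 without fast MEF replicate 3). In the other direction, Mtap2 had 0.70 ± 0.63 CPM in iPS and 63.3 ± 9.30 CPM in fast MEF (-6.38 ± 0.64; -7.19 without iPS replicate 3). Dclk1 (-5.79 ± 1.15; -8.77 without iPS replicate 4) and Celf5 (-4.18 ± 0.59; -4.93 without iPS replicate 2) fell, as did Elavl2 (-3.71 ± 0.53), Uchl1 (-2.32 ± 0.21) and Ncam1 (-2.18 ± 0.31).

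By the labels, slow MEF had been through the same 6 days of induction as fast MEF, and were compared with bulk MEF. Factor RNA differed between the gates. Sox2 averaged 8.41 CPM in slow MEF, 294.4 CPM in fast MEF and 1.38 CPM in bulk MEF. Pou5f1 averaged 2.22, 59.1 and 0.73 CPM in the same order. Whether the factors were induced alike in both gates was not tested. The slow and bulk MEF libraries had served as the low side of the contrasts that led to the choice of the genes, so the tests are not independent of that choice. Their p-values are printed as a description only, and nothing is read from the number of the genes that passed. Of the 4 genes tested, Stmn2 rose and Nes fell, where 5.51% of 11253 genes rose and 4.99% fell. Stmn2 was higher in 4 of 4 slow MEF libraries than in any bulk MEF library (4.19 ± 0.79, edgeR adjusted p = 0.00762), and its value was 3.50 without slow MEF replicate 2. Nes was lower in 4 of 4 (-4.11 ± 0.61, edgeR adjusted p = 0.00226), and -4.76 without slow MEF replicate 4. Over the alternatives the edgeR or DESeq2 adjusted p ran from 1.23e-07 to 0.0278 for Stmn2 and from 2.67e-11 to 0.149 for Nes, the highest being that of the fit to all 24 libraries. Tubb3 had a log2 fold change of -0.76 ± 0.34 (edgeR adjusted p = 0.178), and when bulk MEF replicate 2 was left out it passed, at -1.02 with an adjusted p of 0.046 (0.046 to 0.629 over the alternatives); Stmn1 had 0.77 ± 0.52 (edgeR adjusted p = 0.376).

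The other 5 genes were below the count filter in that comparison. Pou4f2 had 118 counts over slow MEF and none over bulk MEF, at least 39.2-fold higher, and Nova2 156 counts and 1 count, a ratio of 155 (27.5 to 6176). Of 40 other neural genes tested, 4 rose (Dclk1, Ednrb, Gli3 and Slc1a3) and 3 fell (Cpe, Dpysl3 and Tuba1a), and of 10 repressors Ptbp1 fell by 1.53 ± 0.23. By list these were 1 higher and 2 lower of 10 cytoskeletal genes, none of 6 RNA-binding, 2 higher of 4 progenitor, none of 1 bHLH and 2 homeodomain, 1 higher of 7 crest and glial, and 1 lower of 10 synaptic genes.

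Between fast and slow GMP, where no factors were induced, none of the 9 genes passed. Only 4 could be tested: Stmn1 (-0.70 ± 0.78, edgeR adjusted p = 0.842), Stmn2 (-0.34 ± 1.15, 0.962), Olig2 (-3.14 ± 1.90, 0.706) and Tubb3 (0.74 ± 1.24, 0.904). Of all 10057 genes tested with edgeR, 0.0% passed, 742 had an unadjusted p under 0.05, and DESeq2 called 97, with 0 of the 9 and 1 other neural gene among them. Without fast GMP replicate 1, edgeR again passed 0 genes, with 777 at an unadjusted p under 0.05. The sign of Stmn1 turned to 0.36 without slow GMP replicate 3, and that of Tubb3 to -0.74 without fast GMP replicate 5. None of 35 other neural genes tested passed (4 cytoskeletal, 3 RNA-binding, 5 progenitor, 3 bHLH, 2 homeodomain, 8 crest and glial and 10 synaptic genes), and none of 9 repressors. Of the 9, Stmn1 alone passed 100 CPM in each of the 8 GMP libraries. The counts of the transcription factors and of Nova2, Nes and Stmn3 came mostly from single libraries. Olig2 had 11 counts in fast GMP, all in replicate 1, and 0, 17.3 and 3.18 CPM in slow GMP. Pou4f2 reached 19.5 CPM and Stmn3 13.6 CPM in fast GMP replicate 1, and Nova2 reached 25.9 CPM and Nes 19.5 CPM in slow GMP replicate 3. Stmn2 averaged 3.97 ± 2.45 CPM in fast GMP and 5.07 ± 0.44 CPM in slow GMP.

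Across all 24 libraries, the genes whose log2 level ran most like each of the 9 were named by Pearson's r, as a description in which libraries share group and depth. Stmn2 was most like Phlda2, an imprinted placental gene, and Sox2, the pluripotency and neural stem cell factor that is among the induced ones (r = 0.97 each). Sox2 reads from the induced copy and the cell's own gene cannot be told apart. Pou4f2 was most like the desmocollin Dsc2 (0.91) and the simple epithelial keratin Krt8 (0.89), and Tubb3 like Wasf1 (0.93) and the junction protein Jup (0.92). Nova2 was most like Podxl (0.96), a sialomucin of epithelia and stem cells, and Nefl (0.93), and Tlx2 like Mal2 (0.95) and Cnksr2 (0.93). Stmn3 was most like the ligand Nodal (0.97) and Spic (0.95), and Olig2 like Rlbp1 (0.96) and Aire (0.96). Stmn1 was most like the kinase Vrk1 (0.87) and 2700094K13Rik (0.85), and Nes like Mtap9 (0.86) and Agpat3 (0.85). Among the 9 themselves the highest r was 0.88 for Stmn2 with Nova2 and 0.87 for Pou4f2 with Tlx2, and Olig2 with Stmn3 had 0.80, while Stmn1 with Nes had -0.44.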

How the data were processed

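RNA of 24 libraries was measured. Wells held 1000 sorted cells, whose cytoplasmic RNA was copied from oligo-dT and amplified, per the labels' protocols. The tools named in the submitters' processing notes are TopHat2 2.0.4, HTSeq and CASAVA 1.8.2, with build mm9. Annotation and strand use: not given in the sources used here. Overlapping or antisense reads therefore cannot be told apart. On GRCm38.p6, RefSeq models Gm38952 and Gm52261 overlap Nova2 and Olig2; neither is a row of the table. The authors deposited raw read counts, not normalized, for 23283 genes, 1708 of them without a count.

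Groups came from the labels. Each comparison was fitted to its groups alone by the robust quasi-likelihood F test of edgeR 4.0.16 (R 4.3.3), after filterByExpr and TMM scaling, two-sided, at 0.05 after Benjamini-Hochberg adjustment over all genes tested. DESeq2 1.42.0, DESeq2 size factors, no filter, a replicate block, all libraries in 1 fit and leaving out each library were alternatives. Error after a log2 fold change is its SE. Where a group had 0 counts, a fold is a lower bound against 3 counts over the group; counts of 1 to 3 have an exact 95% interval. Both cover counting error only. Fits were tested on simulated data. All 37 replicate pairs differed beyond sampling noise (lowest chi-square per degree of freedom 48.7).

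The 9 genes and the lists were chosen with earlier results of these data known. Of listed symbols 177 matched, 2 by synonym (Mtap2, Mtap1b), and 1 (Drgx) did not. Named genes were, per list and direction, up to 3 of the largest changes past the threshold with a mean of at least 20 CPM (2 for iPS against fast MEF), and the 2 genes most alike in log2 CPM (prior count 2). Some listed genes are not reported by name here.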

Additional observations from a re-analysis of the deposited data

Results flagged for a closer look

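In 7 of 37 groups of values examined for the 9 genes, 1 library lay apart from the others of its group by Dixon's criterion. Slow GMP was not among these groups. The nominal rate of 1 in 20 is for normally distributed values. Where 1 library held all the counts, as for Stmn3 in bulk MEF, Tlx2 in iPS and Olig2 in fast GMP, the flag followed by construction. Nothing is therefore read from the number of flags. Fast GMP replicate 1, the library with the most genes detected among GMP, was high for Stmn3 (13.57 CPM, nearest other 1.353), Pou4f2 (19.5 CPM, nearest other 1.253) and Olig2 (3.109 CPM, the others at 0). Fast GMP replicate 5 was high for Tubb3, at 171.9 CPM with the nearest other at 42.28. Bulk MEF replicate 1 held all the Stmn3 of its group, 0.9791 CPM, and iPS replicate 2 all the Tlx2 of its group, 0.8722 CPM. For Nes, fast MEF replicate 2 was low, at 27.39 CPM with the nearest other at 50.05.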

How the results depend on the processing

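With all 24 libraries in 1 fit, which gives every group 1 spread, the counts of genes called were 1246 for fast against slow MEF (3726 with the groups alone), 3170 for iPS against bulk MEF (5566), 1675 for iPS against fast MEF (4568), 56 for slow against bulk MEF (1181; 38 higher and 18 lower) and 385 between GMP (0). That fit called 10 other neural genes higher and 4 lower in fast against slow MEF, 9 lower in iPS against bulk MEF and 8 lower in iPS against fast MEF. In fast against slow MEF it ended the calls of Celf5, Cnp, Cplx2, Dclk1, Elavl2, Gap43, Mbp, Rcor2, Rest, Tuba1a and Vamp2, in iPS against bulk MEF those of Ctdspl, Gli3, Hes1, Mtap1b and Rcor1, in iPS against fast MEF those of Elavl2, Uchl1, Tubb2b, Rest, Rcor1, Rcor2 and Ctdsp1, and in slow against bulk MEF that of Nes (adjusted p = 0.149). DESeq2 called 1977 genes in slow against bulk MEF and 97 between GMP. Without the count filter, 34 other neural genes were higher in iPS against bulk MEF, where 20 were with it. Leaving out 1 library at a time gave 759 to 998 genes for slow against bulk MEF, 3055 to 3863, 5008 to 5532 and 3960 to 4903 for the other MEF and iPS comparisons in the order above, and 1 or 2 genes in the iPS pattern and in the joint fast MEF and iPS pattern; the joint pattern also had 2 with library totals in place of TMM. Between GMP, leaving out 1 library gave Stmn1 -1.12 to 0.3579, turned round without slow GMP replicate 3, and Tubb3 -0.7381, without fast GMP replicate 5, to 1.696, and neither passed. Deviations of libraries with the same number had correlations of -0.0628 to 0.0728, and those of other pairs -0.143 to 0.138. Pairing by number was thus not seen, though so few pairs of amplified wells cannot exclude a shared culture or animal. With a replicate block the counts were 3344, 5133, 4154, 870 and 0, and Tubb3 between GMP was -0.9062. Mbp and Rest then lost their calls in fast against slow MEF. The causes were not tested. GMP depth, 2098846 to 4411526 counts, limits what those libraries can show.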

Other observations

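Some neural genes had counts that were uneven among the libraries of a group. The Notch target Hes5 had 25 counts in fast MEF replicate 3 (4.33 CPM) and none in the other MEF or iPS libraries. Fabp7, a radial glia gene, had 2, 19 and 28 counts in fast MEF replicates 1, 2 and 4 and none in iPS, slow MEF or bulk MEF. Pax6, a factor of neural progenitors, had 43.3 CPM in iPS replicate 3 and 4.27, 0.17 and 0.80 CPM in the other iPS libraries, and at most 0.40 CPM in fast MEF. Of the 126 other neural genes, 63 were detected in each iPS library, 53 in each fast MEF library, 50 in each slow MEF library and 39 in each bulk MEF library. In fast and slow GMP they were 16 and 31. Detection of all genes also differed, at 14244 to 15327 per library in iPS and 13925 to 14728 in fast MEF. It was 14431 to 14978 in slow MEF and 12755 to 13758 in bulk MEF. In GMP it was 9380 to 18402 over 5 fast libraries and 12526 to 14168 over 3 slow libraries. A gene thus had to be found in more libraries to count in fast GMP. Nothing about neural genes as such is read from these counts.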
